A study of Mus musculus with 4 samples.

Results

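The regions described here are the REST-bound regions of mouse embryonic stem cells (ESCs) that lie at promoters, chosen as those whose midpoint was at most 1000 bp from the nearest transcription start site (TSS) of a protein-coding transcript. Of 2504 regions in the deposited list, 368 met this rule (14.7%, exact 95% interval 13.3 to 16.1%), and the other 2136 lay farther away. REST had been immunoprecipitated from wild type C57BL/6 ESCs, kept undifferentiated with LIF and freed of their feeder layer by passage on gelatin, and the enriched DNA was sequenced. The series held 4 samples, and the remaining samples, namely H3K27me3 from wild type cells, H3K27me3 from REST knockout cells and input DNA, were not analysed here. DNA from 3 technical replicates of each of 2 biological replicates had been pooled into 1 library, so no spread between replicates could be measured. Each region carried only a rank by enrichment, where 1 marks the strongest enrichment, and no read depth was given. Intervals and tests therefore compare regions, sites or genes within 1 list and cover counting error only. A list of bound regions holds no expression level, so the cell type label could not be compared with marker genes.

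REST, also called NRSF, is a zinc finger repressor that keeps genes of mature neurons silent outside the nervous system. It binds a DNA element named RE1 and brings corepressor complexes with histone deacetylase, demethylase and methyltransferase activities to it. The RE1 has a left element of 9 bases, TTCAGCACC, and a right element of 10 bases, GGACAGCGC followed by a C, with 2 free bases between them. A full RE1 was defined here as at most 5 mismatches over the 19 defined bases, on either strand.

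The sequences below show how the RE1 appeared at promoters, beginning with full RE1s of regions that the results return to. Capitals mark the bases of the left and right elements, lower case the free bases, and each is written 5′ to 3′ on the strand given (mm9).
Lhx3 (rank 257), chr2:26063792-26063812, minus: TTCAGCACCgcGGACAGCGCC
Unc79 (rank 1947), chr12:104187967-104187987, minus: TTCAGCACCggGGACAGCGCC
Chgb (rank 34), chr2:132607530-132607550, plus: TTCAGCACCccGGACAGCTCC
Chrnb2 (rank 98), chr3:89568376-89568396, minus: TTCAGCACCacGGACAGCGCT
Vgf (rank 149), chr5:137506144-137506164, minus: TTCAGCACGctGGACAGCGCC
Bdnf (rank 1109), chr2:109516202-109516222, plus: TTCAGCACCttGGACAGAGCC
Barhl1 (rank 44), chr2:28771709-28771729, plus: CTCAGCACCgcGGACAGCGAC

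The 2 perfect RE1s at promoters were those of Lhx3, a LIM homeodomain factor of motor neurons and pituitary, and of Unc79, a subunit of the sodium leak channel complex. The others shown differed from the RE1 at 1 base, except that of Barhl1, a homeobox gene, with 2 mismatches. A perfect RE1 did not fix the rank, which was 257 at Lhx3 and 1947 at Unc79.

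A second set held both elements, each with at most 1 mismatch, at a gap of 3 to 20 bases in place of 2, and is shown because this form was more frequent at promoters than elsewhere.
Scg3 (rank 120), chr9:75531750-75531776, minus: TTCAGCACCcgcggggcGGACAGCGCC
Tph2 (rank 176), chr10:114622044-114622070, minus: TTCAGCACCagggttctGGACAGCGCC
Mapk8ip2 (rank 81), chr15:89283917-89283942, plus: ATCAGCACCctcgggtGGACAGCTCC
Grm2 (rank 206), chr9:106558657-106558682, minus: TTCAGCACCacactgtGGACAGCTCC
Zdhhc22 (rank 286), chr12:88325295-88325321, plus: TTCAGCACCctgccgcgGGACAGCACC

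At Scg3, which encodes a granin of secretory granules, and Tph2, which encodes the brain enzyme of serotonin synthesis, both elements were perfect and 8 bases apart. Neither region held a full RE1.

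Within the 1 kb limit set by the rule, the median distance from the TSS was 269.5 bp, 96 regions (26.1%) had their midpoint within 100 bp, and 119 (32.3%) covered the TSS itself. More midpoints lay downstream than upstream of the TSS, 208 against 159, with 1 at the start site (43.3% upstream, exact 95% interval 38.2 to 48.6%, exact binomial test against 50%, two-sided, p = 0.0121). With a limit of 500 bp this difference no longer passed (46.4% upstream, exact p = 0.267). Of the 368 midpoints, 127 fell in introns, 116 outside the transcripts, 91 in 5′ UTRs, 33 in coding exons and 1 in a 3′ UTR. The nearest TSS was the 5′-most of its gene for 242 regions (65.8%), and 15 regions lay near TSSs of 2 or more genes. The regions closest to the 1 kb limit were those of Pcsk1 (995 bp upstream, rank 957) and Adcyap1 (996 bp upstream, rank 1501) inside it, and of Celf4 (1015 bp, rank 1025) and Gja10 (1034 bp, rank 95) outside it.

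Promoter-near regions ranked better than other regions. Their median rank was 945.5 (quartiles 405.75 and 1711.25), against 1300.5 for the regions beyond 1 kb, and their median width was 287.5 bp against 259 bp. The top quartile of the list, ranks 1 to 626, held 136 of them (37.0%), compared with 22.9% of the other regions (odds ratio 1.97, Fisher's exact test, two-sided, adjusted p = 3.15e-07 over 9 comparisons). The bottom quartile held 68 (18.5%) against 26.1% (odds ratio 0.641, exact adjusted p = 0.00507). The share in the top quartile was 25.5% at 1 to 5 kb, 23.6% at 5 to 20 kb and 21.7% beyond 20 kb. At equal match to the RE1, the median rank was better near a TSS than elsewhere for 1 to 5 mismatches, for example 521 against 767 with 2 mismatches and 553 against 944.5 with 3. For perfect RE1s the order was the opposite, 1102 near a TSS with 2 regions against 427.5 elsewhere with 10.

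**Figure D1:**
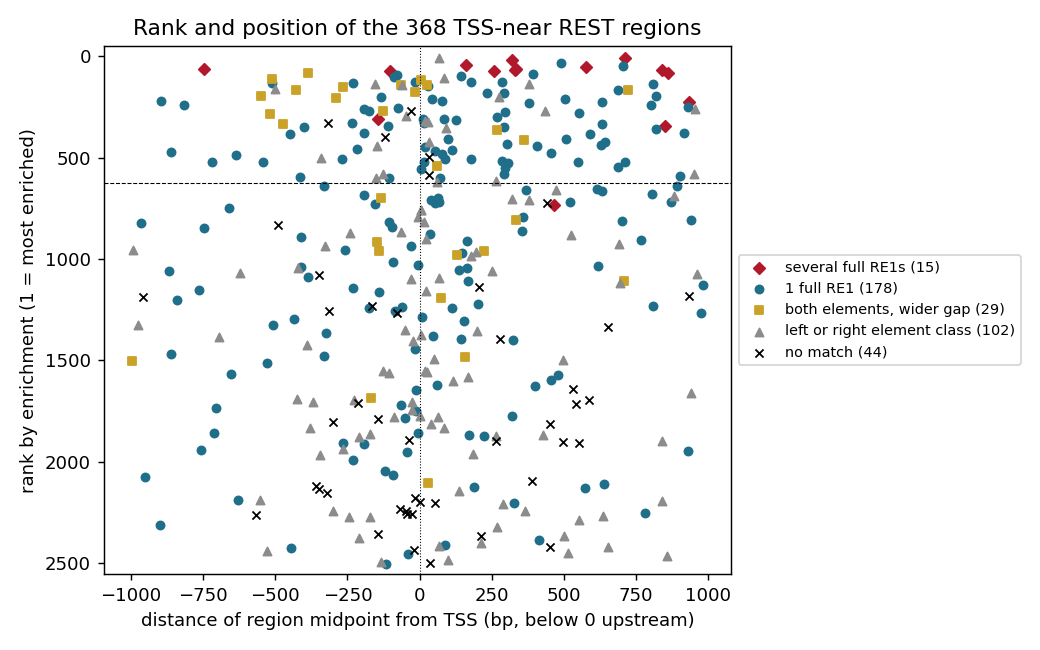
Rank of each of the 368 promoter-near regions (vertical axis, 1 at the top) against the distance of its midpoint from the TSS in bp (horizontal axis, below 0 upstream), with the RE1 class as marker and the end of the top quartile as a dashed line. The 15 regions with several full RE1s sit at ranks 9 to 732, and regions with no match reach no better than rank 269.

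The best ranked promoter-near regions included those of several genes with known roles in neurons. Cacng2 had rank 8, and encodes stargazin, an auxiliary subunit that carries AMPA receptors to the synapse. Its region (chr15:77950175-77950610) was centred 66 bp downstream of the TSS in the 5′ UTR and held no full RE1. Npas4, an activity-dependent bHLH-PAS transcription factor, followed at rank 9 with a region in its intron centred 712 bp downstream of the TSS. The next ranks were those of Golga7b (17), the chromogranin B gene Chgb (34), Barhl1 (44) and Celsr3 (51), a cadherin receptor of axon guidance. Xkr7 (55), Rtbdn (63), Cacng3 (66), Iqsec3 (67), the postsynaptic scaffold gene Dlgap3 (71) and the adhesion molecule gene L1cam (72) completed the 12 best. Cacng3 encodes another auxiliary AMPA receptor subunit of the stargazin family. Of these 12 regions, those of Cacng2, Chgb and Celsr3 did not hold several full RE1s. Chgb and Celsr3 held 1 each.

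The RE1 content of promoter-near regions was compared with that of all other REST regions. A full RE1 was found in 193 of 368 (52.4%, 47.2 to 57.6%) against 59.0% of the others, a difference of -6.59 percentage points (95% interval -12.1 to -1.08, Fisher's exact test, adjusted p = 0.0245). By distance the share was 54.8% at 1 to 5 kb, 54.9% at 5 to 20 kb and 62.5% beyond 20 kb, so the nearer bands were close to the promoter value. The call also depended on the mismatch limit, since the difference was -0.464 points with at most 3 mismatches (exact adjusted p = 1) and -1.24 points with at most 6 (exact adjusted p = 0.701). Both elements at a wider gap were present in 29 promoter-near regions (7.88%) and 59 others (2.76%), with an odds ratio of 3.01 (1.83 to 4.85, exact adjusted p = 4.28e-05). The share was 2.78% at 1 to 5 kb, 2.47% at 5 to 20 kb and 2.90% beyond 20 kb. With at most 6 mismatches in a full RE1, which moves some of these regions to the full class, the difference fell to 1.58 points (exact adjusted p = 0.108). A right element alone was found in 13.9% against 9.41% (exact adjusted p = 0.0201), with 7.32% at 1 to 5 kb, 12.2% at 5 to 20 kb and 8.78% beyond 20 kb. The left element class, which can also hold a right element in another arrangement, made up 13.9% against 10.4% (exact adjusted p = 0.0647). No match was found in 44 promoter-near regions (12.0%) against 18.4% (odds ratio 0.604, exact adjusted p = 0.00507), with 24.0%, 21.5% and 14.9% in the bands of 1 to 5, 5 to 20 and over 20 kb. This call was lost within 500 bp of a TSS, at 13.6% (exact adjusted p = 0.115), with at most 6 mismatches, at 9.78% (exact adjusted p = 0.100), and in the better ranked 1252 regions, at 5.31% (exact adjusted p = 0.124). Several full RE1s were held by 4.08% and 3.79% of regions, a difference of 0.284 points (95% interval -1.89 to 2.46, exact adjusted p = 0.769).

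**Figure D2:**
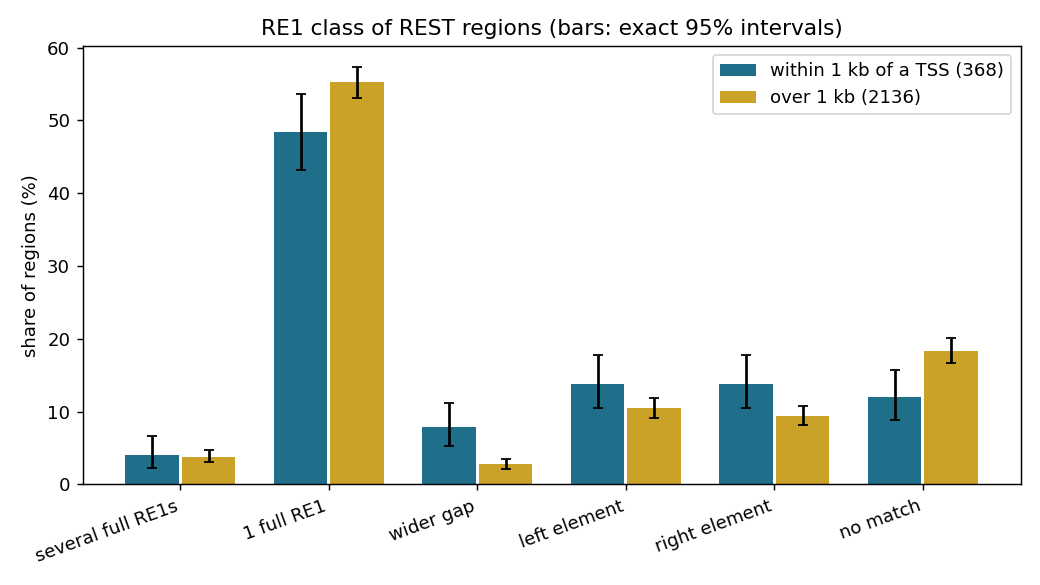
Share of regions (%, vertical axis) in each RE1 class for the 368 regions within 1 kb of a TSS and the 2136 beyond, with exact 95% intervals. The wider gap class stands at 7.88% and 2.76%, with intervals that do not overlap.

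In the promoter-near regions, class and rank went together. The median rank was 71 with several full RE1s, 365 with a wider gap, 718.5 with 1 full RE1, 957 with a left element, 1688 with a right element and 1807 without a match. A region with a wider gap thus ranked, at the median, better than one with a single full RE1, and beyond 1 kb the medians were 931 and 1083.5. These classes are not like for like, since a full RE1 allowed 5 mismatches and the wider gap at most 1 per element. Regions whose best full RE1 had 1 or 2 mismatches had median ranks of 514 and 521 near a TSS. Beyond 1 kb their median ranks were 766 and 767, better than that of the wider gap. Among promoter-near regions, 48.2% of those with a full RE1 and 11.4% of those without a match were in the top quartile (odds ratio 7.20, Fisher's exact test, adjusted p = 1.80e-05 over 6 comparisons). The remaining 5 comparisons of these groups did not pass, including the share rich in CpG (86 of 193 and 22 of 44, odds ratio 0.804, 0.395 to 1.64, exact adjusted p = 0.615). The full RE1 share of promoter-near regions was 68.4%, 55.6%, 39.2% and 30.9% from the first to the last quartile of the list, and 76.7%, 70.1%, 51.4% and 40.3% in other regions.

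**Figure D3:**
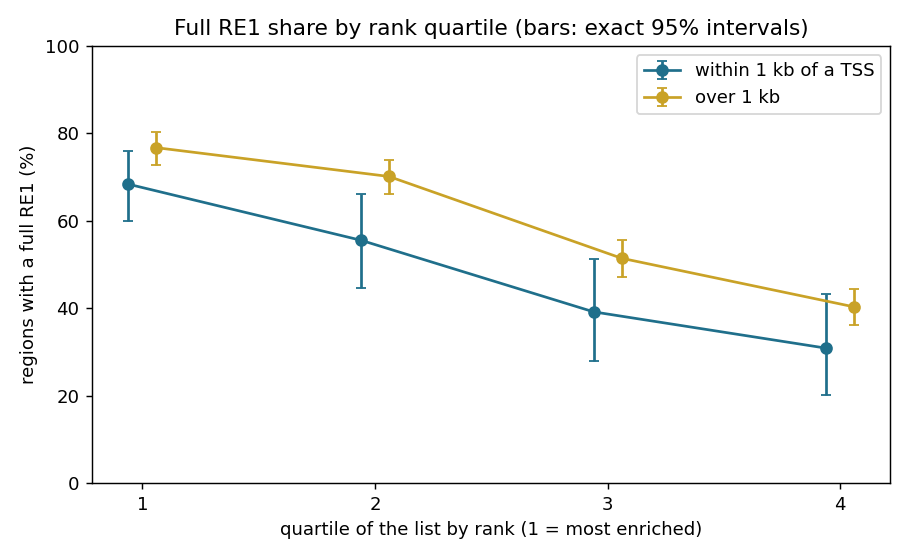
Share of regions with a full RE1 (%, vertical axis) in each quartile of the list by rank (horizontal axis) for regions within 1 kb of a TSS and beyond, with exact 95% intervals. Both series fall with rank, from 68.4% to 30.9% near a TSS and from 76.7% to 40.3% elsewhere.

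The wider gap took few values. Of the 29 promoter-near regions, 9 had a gap of 7 bases, 6 of 8, 8 of 9 and 6 of 10, although gaps from 3 to 20 bases were searched. Their median ranks were 206, 885.5, 350.5 and 611. Besides the genes printed above, this class included Bsn (rank 961), which encodes the active zone protein bassoon, and Adcyap1 (rank 1501), the precursor of the neuropeptide PACAP.

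The left element class held a further form of the motif, which was examined after its values had been seen. In 18 of its 51 promoter-near regions a right element with at most 1 mismatch lay within 5 bases of a left element, in an arrangement that neither the canonical nor the wider gap search takes up. That is 4.89% of promoter-near regions against 1.36% of other regions (29 of 2136, odds ratio 3.73, 1.93 to 7.04, Fisher's exact test, adjusted p = 0.000103 over 2 comparisons). In 7 of the 18 the elements were in the usual order on the same strand but with 0 or 1 base between them, in 1 the order was reversed, and in 10 the elements lay on opposite strands. The opposite-strand form was found in 2.72% of promoter-near and 0.890% of other regions (odds ratio 3.11, 1.28 to 7.10, exact adjusted p = 0.00611). They are printed on the strand of the left element, so that an opposite-strand right element reads as its reverse complement, with both elements in capitals.
Scg2 (rank 296), chr1:79436600-79436618, no base between: TTCAGCACCGGACAGCTCC
Gdap1 (rank 204), chr1:17135702-17135721, 1 base between: TTCAGCACCaGGACAGCTCC
Cacng2 (rank 8), chr15:77950329-77950349, opposite strands: GGAGCTGTCCacTTCAGCACT
Kcns2 (rank 355), chr15:34767196-34767215, opposite strands: GGAGCTGTCCgTTCAGCACC
Psd (rank 902), chr19:46401603-46401623, opposite strands: GGCGCTGTCCccTTCAGCACC

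The best ranked promoter-near region, that of Cacng2, belonged to the opposite-strand group. Its best full-length match had 7 mismatches, beyond the limit, yet it also held a perfect left element at chr15:77950439-77950447. At Ptprn2 (rank 1096), which encodes a phosphatase-like protein of secretory granules, both elements were perfect and directly joined. Scg2, the secretogranin II gene, shared this joined form, with 1 mismatch in its right element.

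In the regions with several full RE1s, 14 of 15 had all their copies on the same strand. The Npas4 region held 4 copies, and the stretch that contains them is printed on the plus strand (chr19:4989111-4989269) with the copies, free bases included, in capitals. They had 4, 1, 1 and 4 mismatches and lay 722 to 840 bp downstream of the TSS.
Npas4: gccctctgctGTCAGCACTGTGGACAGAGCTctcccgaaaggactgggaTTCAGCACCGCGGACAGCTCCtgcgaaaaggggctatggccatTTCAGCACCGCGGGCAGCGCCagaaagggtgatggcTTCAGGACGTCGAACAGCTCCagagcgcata

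Camta1, a calmodulin-binding transcription activator gene, held 7 copies, the most of any promoter-near region, but its rank was 343. Its copies lay in an intron and had 4 or 5 mismatches each.

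Golga7b (rank 17) was the third promoter-near region with at least 3 copies, which had 3, 2 and 2 mismatches. The best copies thus had 1 and 2 mismatches at ranks 9 and 17, and 4 at rank 343. Mismatches did not order the regions with several full RE1s as a class. Cacng3 and L1cam, with 2 full RE1s each, had best copies of 5 and 4 mismatches at ranks 66 and 72. Sst, also with 2, had a best copy of 3 mismatches at rank 732.

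The orientation of the RE1 relative to transcription was balanced. The best full RE1 lay on the strand of transcription in 93 of 193 regions (48.2%, 41.0 to 55.5%, exact binomial test, two-sided, p = 0.666), against 49.7% beyond 1 kb (Fisher's exact test, p = 0.700). The median distance between RE1 and region midpoint was 24 bp, and 166 RE1s (86.0%) were within 50 bp of it. In 5 regions the RE1 itself covered the TSS. At Vgf, which encodes a neuropeptide precursor of dense core granules, the RE1 ended directly before the start site, its centre 11 bp upstream.

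Base composition inside the RE1 differed at promoters. The second free base, position 11 counted from 1 at the 5′ end of the left element, was C in 44.0% of the best RE1s near a TSS and in 21.3% elsewhere (odds ratio 2.91, 2.10 to 4.04, Fisher's exact test, adjusted p = 1.53e-09 over 21 positions). With the G that opens the right element this base forms a CpG, present in 80 of 193 promoter-near RE1s and 252 of 1261 others. The other positions were compared by their RE1 letter, and the free bases by A and C, letters taken after the data were seen. Position 19 was G in 56.0% against 43.2% (exact adjusted p = 0.0075), position 6 was C in 72.0% against 61.5% (exact adjusted p = 0.0264), and position 14 was A less often, in 79.8% against 89.9% (exact adjusted p = 0.00139). The mean number of CpGs was 1.19 in a promoter-near RE1 and 0.507 in others, and 26.9% and 59.5% held none. The free bases gc, as at Npas4 and Lhx3, were found in 13.5% of promoter-near RE1s and 3.17% of others, whereas at was found in 14.0% and 25.3%.

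These letters moved with the composition of the surroundings, whose part in the difference was not tested. Windows of 300 bp were called rich in CpG at a GC content of at least 50% and an observed to expected CpG ratio of at least 0.6. Such windows surrounded 179 of the 368 promoter-near midpoints (48.6%, 43.4 to 53.9%) and 4.07% of the midpoints beyond 1 kb. Around the 5′-most TSSs of all protein-coding genes the share was 48.7%, but those windows were centred on the TSS. Promoter-near midpoints lay up to 1 kb from it, so these shares are not like for like. By distance, the share was 73.9% at 0 to 250 bp downstream and 61.2% at up to 250 bp upstream. It was 30.0% at 750 to 1000 bp downstream and 0% at 750 to 1000 bp upstream. Among promoter-near RE1s the CpG at positions 11 and 12 was present in 54.7% of those in CpG-rich windows and in 30.8% of those in other windows. For positions 18 and 19 the shares were 55.8% and 24.3%.

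To ask how many RE1s at promoters lay in listed regions, the genome was searched for full RE1s and each was checked for a listed region over it. Each site counted on its own, so several copies in 1 region were counted separately. How many sites fell in a region by chance was not measured. Here the RE1 itself, not the region, had to lie within 1 kb of a TSS. The 2 perfect RE1s and the 22 with 1 mismatch near a TSS all lay in listed regions, followed by 45 of 49 (91.8%) with 2 mismatches, 50 of 83 (60.2%) with 3, 40 of 378 (10.6%) with 4 and 54 of 2428 (2.22%) with 5. Elsewhere, 10 of 10 perfect RE1s and 62 of 67 (92.5%) with 1 mismatch also lay in listed regions. The shares elsewhere were 84.9%, 48.3%, 8.38% and 0.912% from 2 to 5 mismatches. With each number of mismatches tested on its own, the difference passed at 5 mismatches (odds ratio 2.47, 1.81 to 3.32, Fisher's exact test, adjusted p = 1.98e-07 over 6 comparisons) and not at 3 (odds ratio 1.62, adjusted p = 0.147). Pooled up to 3 mismatches, a grouping made after the values were seen, 119 of 156 promoter RE1s (76.3%, 68.8 to 82.7%) and 60.5% of others were listed (odds ratio 2.09, 1.41 to 3.18, exact p = 0.000137). This pool mixes mismatches unevenly, since 73 of the 156 promoter RE1s but 362 of the 1138 others had at most 2. How much of the pooled difference came from this mix was not tested. Pooled up to 2 mismatches, the shares were 94.5% and 86.7% (Fisher's exact test, p = 0.0740). The 4 promoter RE1s with 2 mismatches outside any listed region were those of Celf3, Bex2, Rgs7 and Tmem181b-ps. The 61-bp window around the site of Tmem181b-ps recurs elsewhere in the genome, and that of Celf3 lay 1753 bp from a listed region.

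**Figure D4:**
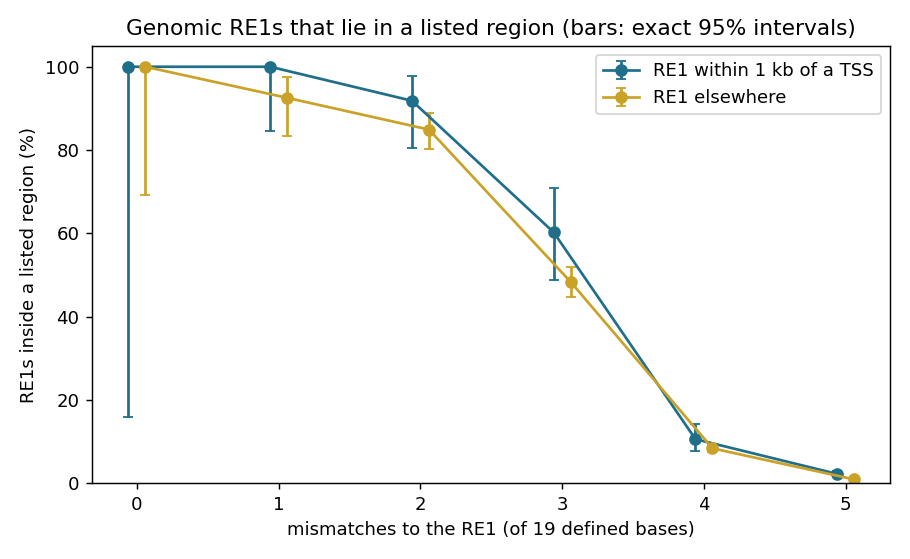
Share of genomic full RE1s that lie in a listed REST region (%, vertical axis) by number of mismatches (horizontal axis), for RE1s within 1 kb of a TSS and elsewhere, with exact 95% intervals. Near a TSS the share falls from 91.8% with 2 mismatches to 10.6% with 4.

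A REST region within 1 kb of a TSS was carried by 372 of 22219 protein-coding genes, 1.67%, which is the background for the gene lists. The lists were chosen with earlier results of these data known, and their counts are descriptions without a test. On the 15 neuronal lists together, 87 of 431 genes (20.2%) had a promoter-near region, and 93 of the 368 regions (25.3%) had a gene of these lists as a neighbour. The 431 neuronal-list genes made up 1.94% of the 22219 protein-coding genes. Neuronal-list genes were near 10 of the 15 regions with several full RE1s (66.7%), 32.0% of those with 1 and 24.1% with a wider gap. The shares were 19.6% with a left element, 7.84% with a right element and 11.4% without a match. By quartile of the list the shares were 40.4%, 22.2%, 14.9% and 10.3%. Assignment to the nearest TSS does not show that a gene is regulated.

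**Figure D5:**
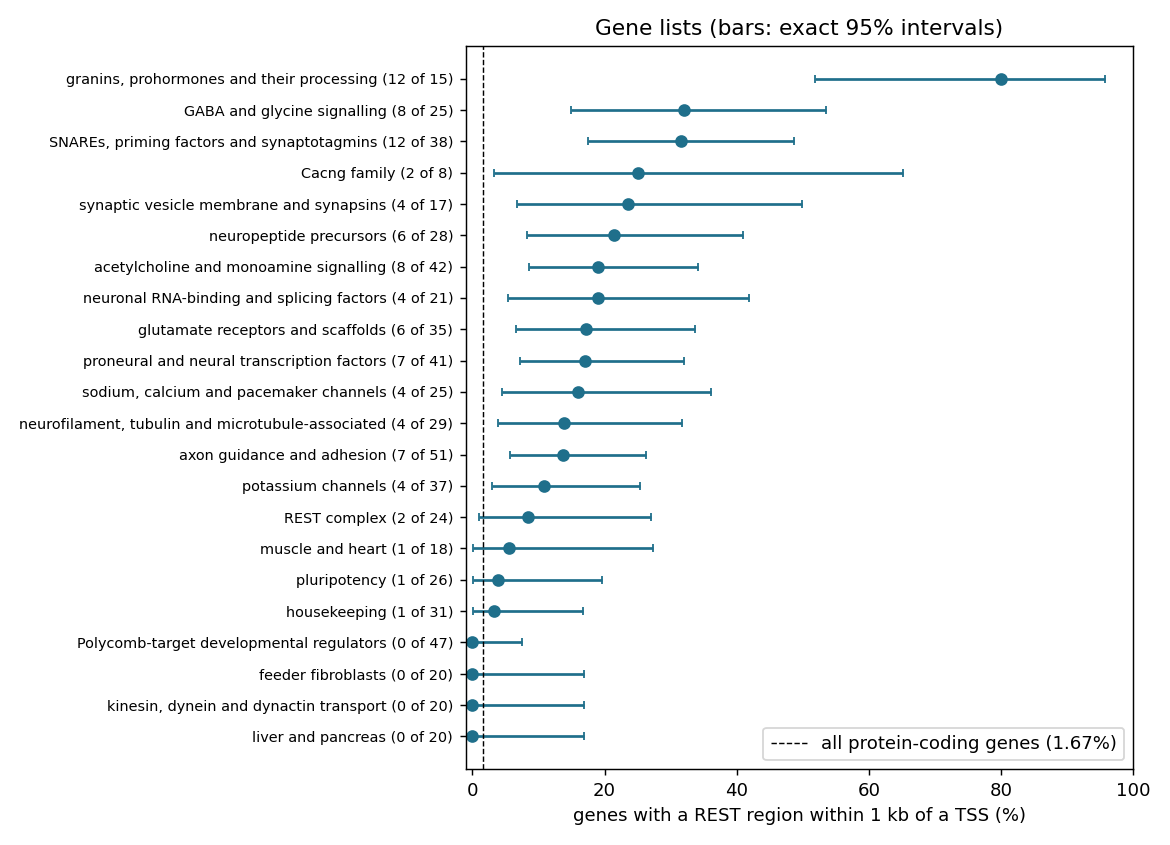
Share of the genes of each list with a REST region within 1 kb of a TSS (%, horizontal axis), with exact 95% intervals and the share of all protein-coding genes, 1.67%, as a dashed line. Granins and prohormone genes stand highest at 80.0%, and 4 lists have no such gene.

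Genes of the regulated secretory pathway had the largest share of any list. Of 15 granin, prohormone and processing genes, 12 (80.0%, 51.9 to 95.7%) had a promoter-near region. The granins store and sort peptides in dense core granules, and Chgb (rank 34), Scg3 (120), Vgf (149), Chga (184), Scg2 (296) and Scg5 (498) were among the 12. The prohormone convertase genes Pcsk2 (rank 259) and Pcsk1 (957) and the granule membrane protein genes Ptprn (589) and Ptprn2 (1096) also carried one. Of the 12 genes, 6 had a full RE1, while Scg3 held the wider gap form, Scg2, Ptprn2, Pcsk1 and Pcsk2 a left element and Scg5 no match. Of 28 neuropeptide precursor genes, 6 had a region, with ranks from 470 for Vip to 1501 for Adcyap1. They included Crh (523), Cartpt (524), Sst (732) and Pomc (813), which encode corticotropin-releasing hormone, CART, somatostatin and proopiomelanocortin.

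Synaptic release genes were also represented. Of 38 genes for SNAREs, priming factors and synaptotagmins, 12 (31.6%) had a promoter-near region, 10 of them with a full RE1. Snap25 (rank 84), a SNARE of synaptic vesicle fusion, had 2 full RE1s in a region centred 860 bp downstream of its TSS. Unc13a (130) and Rph3a (347), for a priming factor and a Rab3 effector, and Cplx1 (230), for complexin 1, came next. Among 17 vesicle membrane and synapsin genes, 4 had a region, with ranks of 331 for Synj1, 409 for Slc17a6, 711 for Syp and 2504 for Syn1. The Syn1 region was the last of the whole list, and its RE1 had 2 mismatches.

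Among receptor genes the GABA and glycine list had the highest share after the granins. Of its 25 genes, 8 (32.0%) had a promoter-near region, led by the glycine receptor gene Glra1 (rank 76) and the GABA receptor gene Gabrd (90), and including the glycine transporter gene Slc6a5 (408). Of 42 acetylcholine and monoamine genes, 8 had one, with the nicotinic receptor gene Chrnb2 at rank 98, Tph2 at 176, the dopamine receptor gene Drd2 at 228 and the muscarinic receptor gene Chrm4 at 241. Of 35 glutamate receptor and scaffold genes, 6 (17.1%) had one, among them Dlgap3 (71), Grm2 (206) and the NMDA receptor gene Grin1 (875). Of the 8 Cacng genes, Cacng2 and Cacng3 had one.

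Ion channel genes had lower shares at promoters than the release and receptor lists above. A region was found for 4 of 25 sodium, calcium and pacemaker channel genes (16.0%) and 4 of 37 potassium channel genes (10.8%). The former were Hcn3 (rank 197), Scn3b (283), Scn2a1 (472) and Cacna1b (807), and each had a full RE1 more than 500 bp from the TSS. The latter included Kcnc1 (710), Kcnt1 (1223) and Kcnk12 (2190). The potassium channel list did not hold Kcns2, printed above, and its count was 8 with a limit of 2 kb. Of 51 axon guidance and adhesion genes, 7 had a region, including Celsr3, L1cam and Nrxn2 (520). Of 29 neurofilament, tubulin and microtubule-associated genes, 4 had one, namely Mapk8ip2 (81), Nefm (220), Stmn3 (433) and Mapk8ip1 (1242). Of 21 genes for neuronal RNA-binding and splicing factors, 4 had one, among them Srrm4 (302) and Srrm3 (323), which encode regulators of neuronal microexons. Of 41 proneural and neural transcription factor genes, 7 had one, including Npas4, Barhl1, Lhx3, Scrt1 (310) and Hes3 (381).

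The other lists held few such genes, but the background of 1.67% lay within the exact 95% interval of each. These counts therefore do not show a shortage of promoter-near regions. A promoter-near region was found for 0 of 47 Polycomb-target developmental regulators (upper 95% limit 7.55%), and for 0 of 20 genes each of kinesin, dynein and dynactin transport, of feeder fibroblasts and of liver and pancreas (upper limit 16.8%). The transport list did not hold Dynll2, which had a promoter-near region. With a limit of 2 kb the transport list had 1 gene and the liver and pancreas list 3. The pluripotency list had 1 of 26, Nanog (rank 1965, left element), the housekeeping list 1 of 31, Tfrc (1812, no match), and the muscle and heart list 1 of 18, the natriuretic peptide gene Nppb (1087). Of 24 genes of the REST complex, Ctbp1 (1045, right element) and Rest itself (1993) had one. The Rest region held an RE1 with 5 mismatches, and its midpoint lay 231 bp upstream of a TSS.

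Some genes carried a pair of regions within 1 kb of their TSSs. There were 12 such genes, and none had more than 2 regions. Vgf had ranks 149 and 225, Celsr3 51 and 350, Zdhhc22 129 and 286, Drd2 228 and 1878, and Pomc 813 and 1601. In the regions of Drd2, Madd, Pomc and Cntnap2 the better ranked of the pair held 1 full RE1 and the other a right element. Another region within 2 kb was found for 23 promoter-near regions (6.25%) and 2.81% of others. Of the loci that the study examined by ChIP, Npas4, Galnt9 (rank 1875), Vgf, Dner (273), Cacng2, Celsr3, Bdnf and Hes3 had a promoter-near region, while Kcnk9, Scn8a, Otop3, Pou5f1 and Gapdh had none within 1 kb. Bdnf encodes the brain-derived neurotrophic factor, and its region at rank 1109 was centred 168 bp downstream of a TSS.

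The regions without any RE1 match ranked low, with few exceptions. The best were those of Dnmt3a (rank 269), a DNA methyltransferase gene, Synj1 (331), which encodes synaptojanin 1 of vesicle recycling, Katna1 (399), a microtubule severing gene, Scg5 (498) and the dynein light chain gene Dynll2 (584). In these 5 the closest full-length match had 7 or 8 mismatches. The best ranked region with a right element alone was that of Grb10 (137), a growth factor receptor adaptor gene, at chr11:11925779-11926115, with the element at chr11:11925906-11925915.

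Motifs of common promoter factors were counted in the 300 bp around the midpoint, on both strands and with exact letters, beside the 300 bp around the 5′-most TSS of every gene. The SP motif GGGCGG was present in 47.8% of promoter-near regions and 46.2% of TSS windows, and the NFY motif CCAAT in 29.3% and 35.6%. The TATA motif TATAAA was present in 7.07% and 10.7%, and the ETS motif CCGGAAGT in 1.63% and 4.84%. The ETS motif was found in 1 of 193 promoter-near regions with a full RE1 and in 3 of 44 without a match. For the NRF1 motif GCGCATGC the shares were 2.72% and 3.17%, for the CRE motif TGACGTCA 1.90% and 2.26%, and for the YY1 motif AAGATGGC 2.45% and 3.83%. The SP letters could overlap other matches, and a window around a midpoint is not centred on the TSS, so these shares are descriptions without a test.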

How the data were processed

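Per the paper's methods and the labels, REST-bound fragments of sheared, crosslinked ESC chromatin were collected with a polyclonal antibody to the REST C-terminus, and the DNA was size-selected, amplified by PCR and sequenced as 1 pooled library. The methods name Bowtie with uniquely mapped reads, while the submitters' processing notes name BWA, both on mm9. PeakRanger and MACS served as peak callers, and which output was deposited is not stated. The only deposited measurement was the authors' rank score of each region, which orders enrichment but gives no height. Sites in repeated sequence could be missed, and size selection and PCR could alter ranks. Precision cannot be read from depth, which was unknown.

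Coordinates are as deposited, and whether they count from 0 was not stated, so the start was taken as 0-based. RE1 positions count from 1. Sequence was NCBIM37 (mm9) with GENCODE M1, chromosome M left out (46015 TSSs). Each region took the first fitting class of several full RE1s, 1 full RE1, wider gap, left element, right element, no match. A full RE1 allowed 5 of 19 mismatches, a single element 1. Shares have exact Clopper-Pearson 95% intervals. Fisher's exact and exact binomial tests were two-sided (scipy 1.17.1, threshold 0.05), with Benjamini-Hochberg adjustment within each family. Intervals of differences between shares are normal approximations. The search was tested on simulated sequence with planted motifs.

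Members and gene lists were chosen with earlier results of these data known. Genes were named by rule: the 12 best ranked, perfect or at least 3 full RE1s, the 5 best without a match, the best of each non-canonical class, up to 4 per list, the regions at the limit, genes with at least 2 regions and the study's ChIP loci. Other genes named, including those of the opposite-strand and joined motifs, were chosen after their values were seen. A few genes and 1 sequence within this rule are not reported here. Slc18a3 and Sox1 were not in the annotation. Alternatives were other mismatch, distance and CpG limits, the 5′-most TSS, the better ranked 1252 regions and a start counted from 1.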

Additional observations from a re-analysis of the deposited data

How the results depend on the processing

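Of 59 alternative values for the main results, 46 stayed the same and none reversed. A tested value stayed the same if it kept its side of the threshold, and its direction where the main or alternative value passed. A share or rank without a test did so within the interval of the main value, and a count within 1.5 times the main count. The full RE1 share was 30.4% with at most 3 mismatches, 68.8% with at most 6 and 63.3% in the better ranked 1252 regions. Its difference from other regions was -0.464 points with at most 3 mismatches (exact adjusted p = 1) and -1.24 with at most 6 (exact adjusted p = 0.701). The share without a match was 9.78% with at most 6 mismatches (exact adjusted p = 0.100), 13.6% at 500 bp (exact adjusted p = 0.115) and 5.31% in the better ranked regions (exact adjusted p = 0.124). The upstream share at 500 bp was 46.4% (exact p = 0.267). The CpG-rich share was 59.8% at 500 bp, 38.6% at 2 kb and 41.8% with stricter limits for GC and CpG. The wider gap difference, an alternative chosen after seeing the data, was 1.58 points with at most 6 mismatches (exact adjusted p = 0.108). Of 66 alternative counts for single gene lists, 12 moved by over 1.5 times, most of them in lists with few genes. The causes were not tested. No paired analysis was possible because the list came from 1 pooled library.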
